A study of Mus musculus with 16 samples.

Results

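Lin28a, Lin28b, Hmga2, Igf2bp1, Igf2bp2, Igf2bp3 and Arid3a are genes of the Lin28 and let-7 axis that are known for their activity in fetal tissues and in tumours, and their RNA levels are described here in kidneys of mouse embryos from which the histone methyltransferase Ezh2 had been removed in nephron progenitors. All array probes annotated to one of these genes were taken, whatever their signal, which gave 13 probes for 7 genes out of 56605 probes and 22911 gene symbols on the array. Of these 13 probes, 11 passed the filter on dim probes, which asked for a signal well above background in the sample's channel on at least 4 of the 16 arrays. The genes were chosen by their own log2 ratios and detection in these 4 genotypes, so those levels are given as a description, without a test.

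Total RNA of whole kidneys at embryonic day 17.5 from C57BL/6 mice was hybridised to 16 two-colour Agilent arrays, with 4 biological replicates of each genotype per the series' design text. In the first group, called Ezh2-KO, both copies of Ezh2 were deleted conditionally in Six2-positive nephron progenitors and Ezh1 was wild type. The second group, called Ezh1-het, carried the same Ezh2 deletion and had also lost 1 germline copy of Ezh1. The third group, the double knockout, carried the Ezh2 deletion and had lost both germline copies of Ezh1, and the fourth group was the wild-type control. The Ezh2 deletion is confined to the Six2-positive lineage while the Ezh1 deletion affects every cell, and the RNA came from the whole organ. In such bulk samples more cells of a type and more RNA per cell cannot be told apart. Every array held its sample in Cy5 and the RNA of control 1 in Cy3, so that values are log2(Cy5/Cy3), and the array of control 1 compared that RNA with itself. Whether replicates came from separate litters is not stated, so a p-value here speaks only of the spread among these arrays. Slide 1 held replicates 1 and 2 of every group, and slide 2 held replicates 3 and 4. Where 3 differences are given together, they are those of Ezh2-KO, Ezh1-het and the double knockout, in this order, each minus control.

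As background, let-7 is a family of small RNAs that lowers the output of many messenger RNAs through sites in their tails, and Lin28a and Lin28b are RNA-binding proteins that block the maturation of let-7 precursors. Hmga2, Igf2bp1, Igf2bp2, Igf2bp3 and Arid3a are among the reported let-7 targets. In the mouse kidney Lin28b and let-7 are known to bear on when nephron formation ends. PRC2, of which Ezh2 and Ezh1 are the alternative catalytic subunits, places the repressive mark H3K27me3 on chromatin.

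Reported let-7 targets are linked to let-7 through its seed, its bases 2 to 8 counted from the 5′ end. Whether the transcripts of the members hold sites for this seed was not examined here. The sequences below are from RefSeq (GRCm38.p6), with the seed in capitals, and show family members that differ outside the seed and the 1 listed name that differs within it.
let-7a-5p: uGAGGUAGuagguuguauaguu
let-7d-5p: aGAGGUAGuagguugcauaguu
let-7g-5p: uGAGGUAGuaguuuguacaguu
miR-98-5p: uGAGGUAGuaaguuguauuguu
let-7j: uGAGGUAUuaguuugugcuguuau
Of 11 mature let-7 family names in that table, 10 carried the same seed, and let-7j did not. Among all 1679 mature miRNA names of the table, 1 outside the family shared the seed. Lin28 proteins are known to bind a GGAG motif in the loop of let-7 precursors. GGAG, searched on the strand of the RNA between both arms of the hairpin, was present in 9 of 14 let-7 family hairpins and in 6.95% of 633 other mouse hairpins. The 633 are only those for which the table lists both arms. A family hairpin without both arms listed stayed among the 14 and counted as lacking the motif, so the 2 shares are not directly comparable. The hairpin of let-7g is shown with this motif in capitals (GRCm38.p6, chr9:106178840-106178927, plus strand).
Mirlet7g: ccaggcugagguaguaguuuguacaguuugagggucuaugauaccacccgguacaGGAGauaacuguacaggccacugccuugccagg
A match of these letters is a description and not evidence of binding. No probe of the array (0) was annotated to a let-7 gene, so let-7 itself was not analysed here.

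The targeted genes were read on the same arrays as a check of the labels. Ezh1 lay between -0.30 and 0.37 in Ezh2-KO, between -1.38 and -0.88 in Ezh1-het and between -4.62 and -4.44 in the double knockout, against -0.31 to 0.22 in control. Of 5 Ezh2 probes, A_51_P248067 lay between -3.74 and -2.69 on the 12 knockout arrays, against -0.51 to 0.44 in control, while the group means of the 4 others were between -0.45 and -0.11 in the knockout groups. Where these probes lie relative to the deleted exons was not analysed here. The share of probes with a Cy5 signal well above background was 53.1% to 63.4% per array, lowest on control 2.

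Lin28b was the member with the largest difference from control in all 3 knockout groups. On probe A_55_P1970905, the brighter of its probes, the log2(Cy5/Cy3) values were 1.47, 1.72, 2.09 and 1.90 in Ezh2-KO kidneys. They were 1.88, 1.85, 1.81 and 1.92 in Ezh1-het kidneys. In double knockout kidneys they were 1.64, 1.52, 1.84 and 1.67. The control kidneys had -0.21, -0.19, -0.24 and 0.14. All 12 knockout arrays thus lay above all 4 control arrays, and the 3 knockout groups overlapped one another. The group means were 1.80 ± 0.27 for Ezh2-KO, 1.86 ± 0.05 for Ezh1-het and 1.67 ± 0.13 for the double knockout, against -0.13 ± 0.17 in control (SD, n = 4 each).

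The probe was well above background in Cy5 on 4 of 4 arrays in each knockout group and on 0 of 4 control arrays. In Cy3, which held control RNA throughout, it was well above background on 5 of 16 arrays. These were 2 Ezh2-KO, 2 Ezh1-het and 1 double knockout array, and 0 of 4 control arrays. Why the Cy3 detection fell only on knockout arrays was not tested. The control level is therefore only a bound. By an approximate bound, Lin28b was at least 3.79-fold higher than control in Ezh2-KO, 3.97-fold in Ezh1-het and 3.46-fold in the double knockout. Each bound is the smaller of the fold of the ratio and the fold of the Cy5 level over the background limit, and the Cy5 level alone gave 4.64, 5.26 and 4.5 for the 3 groups. The corresponding log2 differences were 1.92, 1.99 and 1.79 (SE 0.12 each). Their size differed between settings. The software's processed signals, which carry no added offset and replace the normalization as well, gave 5.21, 5.17 and 5.43. With background and normalization unchanged, the mean over both Lin28b probes that passed the filter gave 1.13, 1.16 and 1.15. Within slide 1 the differences were 1.79, 2.06 and 1.78, and within slide 2 they were 2.05, 1.92 and 1.80.

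The other Lin28b probes were dimmer. Probe A_52_P532355 read 0.23, 0.27, 0.62 and 0.29 in Ezh2-KO kidneys. Its values were 0.30, 0.16, 0.44 and 0.40 in Ezh1-het kidneys and 0.48, 0.60, 0.46 and 0.49 in the double knockout, while the controls had -0.06, 0.05, 0.02 and 0.00. This probe too was well above background on all 12 knockout arrays and on 0 control arrays, with no overlap, and gave differences of 0.35, 0.32 and 0.50. The folds of the ratio on this probe, approximate in the same way, were 1.27, 1.25 and 1.42. Probe A_55_P2781208, annotated to a predicted Lin28b transcript, was well above background on 0 of 16 arrays, and its group means lay between -0.05 and -0.03. The double knockout minus Ezh2-KO was -0.13 (SE 0.12) on the brighter probe and 0.15 on the dimmer one, so that the sign differed between probes and the arrays overlapped on both.

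**Figure D1:**
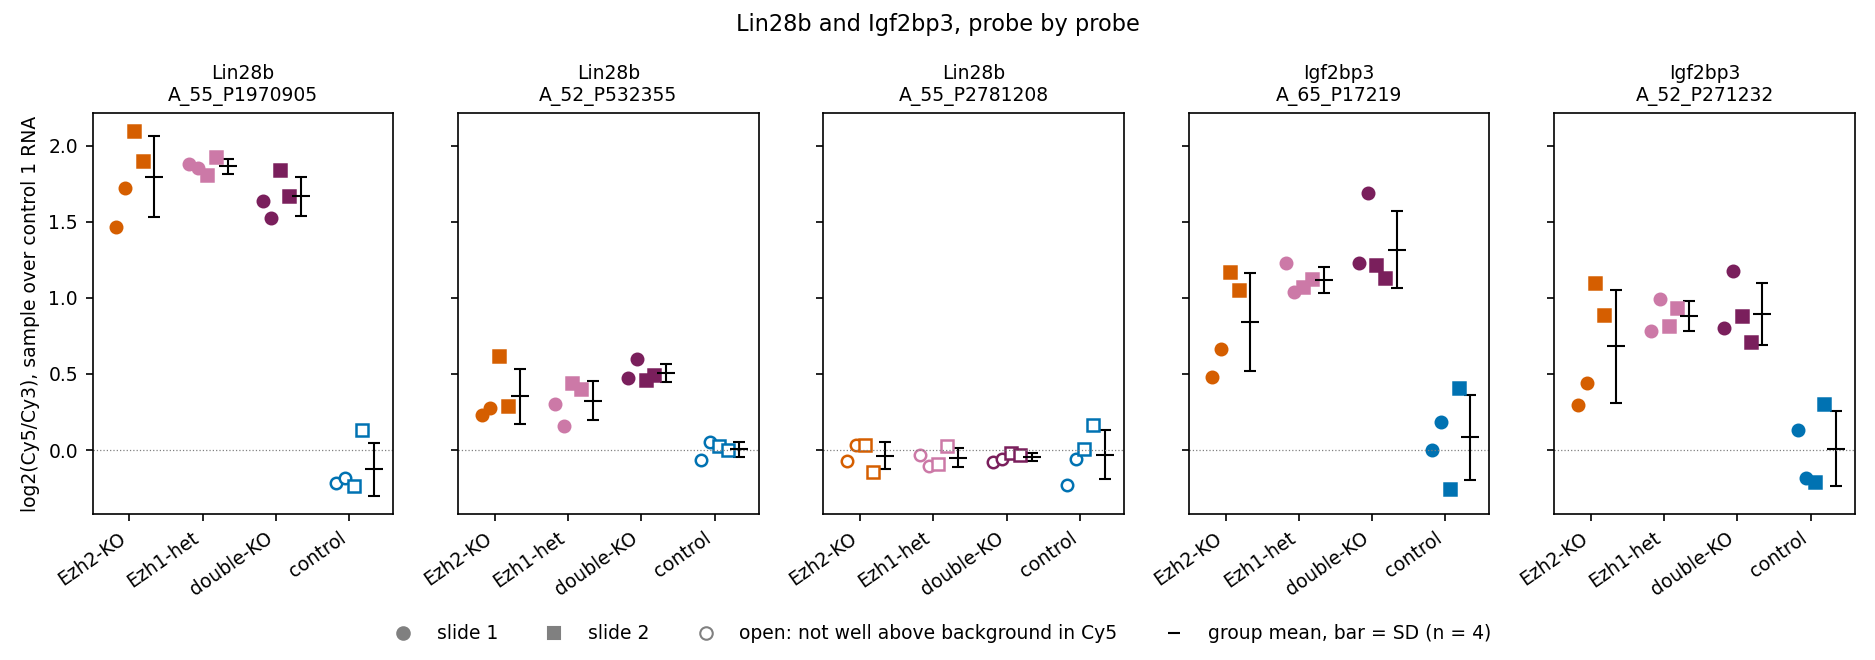
Log2(Cy5/Cy3) on each array for the 3 probes of Lin28b and the 2 probes of Igf2bp3, by group, with circles for slide 1, squares for slide 2, open symbols for arrays not well above background in Cy5, and the mean with SD (n = 4). The 2 measurable Lin28b probes separate the 12 knockout arrays from the 4 controls, the last Lin28b probe stays near 0 on every array, and on both Igf2bp3 probes the 2 Ezh2-KO arrays of slide 2 lie above the 2 of slide 1.

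Lin28a, the paralog expressed in pluripotent cells and early embryos, did not separate the groups. On probe A_55_P2074371 its values were 0.10, 0.06, 0.06 and -0.25 in Ezh2-KO and 0.01, -0.08, 0.05 and -0.07 in Ezh1-het. They were 0.10, 0.10, -0.06 and 0.16 in the double knockout, against -0.04, 0.17, -0.02 and 0.03 in control. All 4 groups overlapped, and the probe was well above background in both channels on 16 of 16 arrays. The differences from control were -0.05, -0.06 and 0.04 (SE 0.09 each). The other Lin28a probe was well above background on 0 of 16 arrays.

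Among the Igf2bp genes, which encode RNA-binding proteins that stabilise and localise messengers, Igf2bp3 was the one with higher levels in the knockout kidneys. On probe A_65_P17219 it had 0.48, 0.66, 1.17 and 1.05 in Ezh2-KO. The Ezh1-het values were 1.23, 1.04, 1.07 and 1.12, and those of the double knockout were 1.23, 1.69, 1.22 and 1.13. The controls had 0.00, 0.18, -0.25 and 0.40. The lowest knockout array, Ezh2-KO 1 at 0.48, lay just above the highest control array, control 4 at 0.40, and the other 11 knockout arrays lay further off. The probe was well above background in both channels on every one of the 16 arrays, so that these folds are not limited by background.

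The Igf2bp3 mean was 0.84 ± 0.32 for Ezh2-KO, 1.12 ± 0.08 for Ezh1-het and 1.32 ± 0.25 for the double knockout, against 0.08 ± 0.28 in control (SD, n = 4 each). The differences from control were 0.76, 1.03 and 1.23 (SE 0.16 each), or 1.69-fold, 2.05-fold and 2.35-fold. Probe A_52_P271232 gave 0.67, 0.87 and 0.88, with overlap between Ezh2-KO and control and none for the other 2 groups. In Ezh2-KO the difference was 0.48 within slide 1 and 1.03 within slide 2, whereas it was 1.04 and 1.02 in Ezh1-het and 1.37 and 1.10 in the double knockout. The means ran from the double knockout through Ezh1-het and Ezh2-KO to control, and each knockout group overlapped the next. The double knockout minus Ezh2-KO was 0.47 (SE 0.16) on the first probe, with 0.89 on slide 1 and 0.06 on slide 2. On probe A_52_P271232 it was 0.21, with 0.62 on slide 1 and -0.19 on slide 2, so the sign differed between slides.

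Igf2bp1 and Igf2bp2 did not separate the groups. Igf2bp1 had 0.01, -0.07, 0.08 and -0.12 in Ezh2-KO and -0.15, -0.09, -0.06 and 0.03 in Ezh1-het. It had 0.06, 0.77, 0.02 and 0.26 in the double knockout, against 0.01, 0.48, 0.20 and 0.09 in control. The highest values were those of double knockout 2 and control 2, and all groups overlapped control. Its differences from control were -0.22, -0.26 and 0.08 (SE 0.14 each). Igf2bp2 ranged from -0.07 to 0.08 in Ezh2-KO, from -0.04 to 0.16 in Ezh1-het and from 0.03 to 0.31 in the double knockout, against -0.09 to 0.16 in control. Its differences from control were -0.03, 0.03 and 0.14 (SE 0.08 each), and the second probe gave 0.03, 0.10 and 0.12.

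Hmga2, an architectural chromatin protein that is the best known let-7 target, had 0.38, 0.20, 0.28 and -0.05 in Ezh2-KO on probe A_55_P2743046. Its values were -0.03, 0.28, 0.03 and 0.22 in Ezh1-het and 0.33, 0.90, 0.33 and 0.57 in the double knockout, against 0.02, 0.71, 0.50 and 0.08 in control. The control arrays alone spanned 0.02 to 0.71, and every knockout group overlapped them. The differences from control were -0.13, -0.21 and 0.20 (SE 0.16 each), and probe A_52_P300730 gave -0.10, -0.09 and 0.25. The double knockout minus Ezh2-KO was 0.33 on the first probe, with overlap, and 0.35 on the second, where the arrays of the 2 groups did not overlap.

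Arid3a, a DNA-binding factor first known from B cells, had -0.45, -0.35, 0.22 and -0.04 in Ezh2-KO. It lay between -0.13 and 0.04 in Ezh1-het and between -0.15 and 0.07 in the double knockout, against -0.17 to 0.00 in control. The Ezh2-KO arrays spanned the widest range of the 4 groups, with both arrays of slide 1 below both of slide 2. The differences from control were -0.04, 0.09 and 0.10 (SE 0.11 each), with overlap in every comparison. With each array centred on its median instead of loess-normalised, the differences of the 5 genes other than Lin28b and Igf2bp3 were positive in all 3 comparisons, from 0.03 for Lin28a in Ezh2-KO to 0.84 for Hmga2 in the double knockout. That setting moved the median of all genes to 0.41, 0.44 and 0.38, against 0.06, 0.05 and 0.01 with loess, so no direction is given for these 5 genes.

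**Figure D2:**
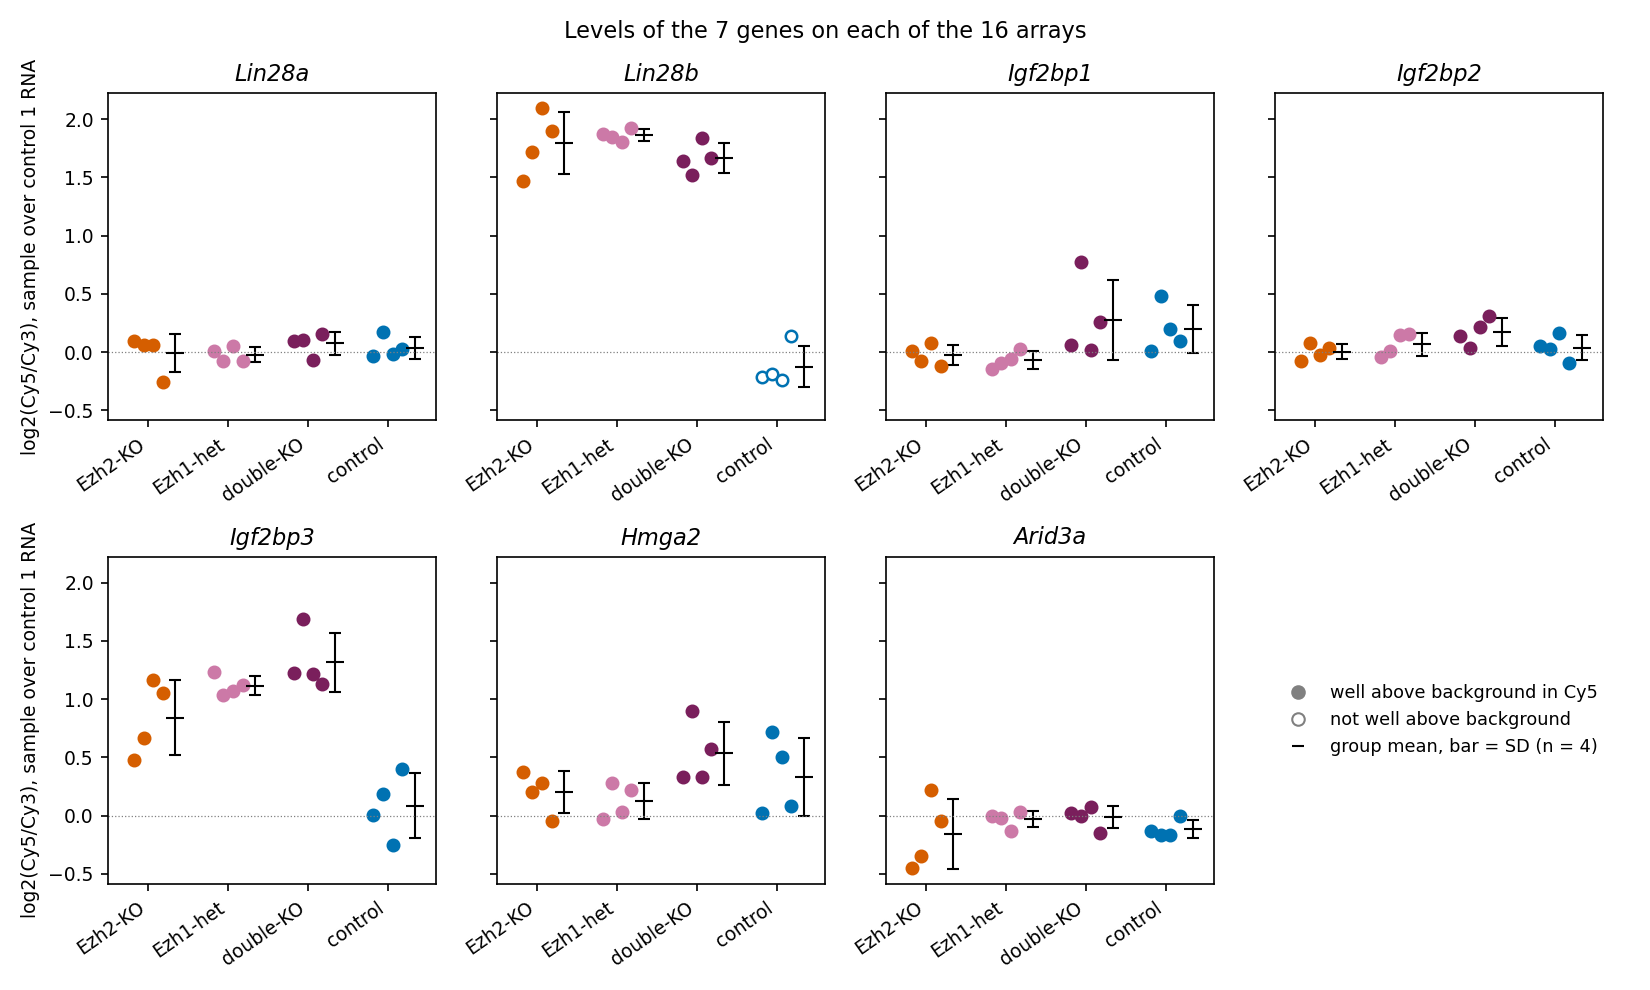
Log2(Cy5/Cy3) of each of the 7 genes on each of the 16 arrays, by group (4 arrays each), with the group mean and SD beside the points and open symbols for arrays not well above background in Cy5. Lin28b and Igf2bp3 lie higher in all 3 knockout groups than in control, and the remaining 5 genes overlap control in each group.

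**Figure D3:**
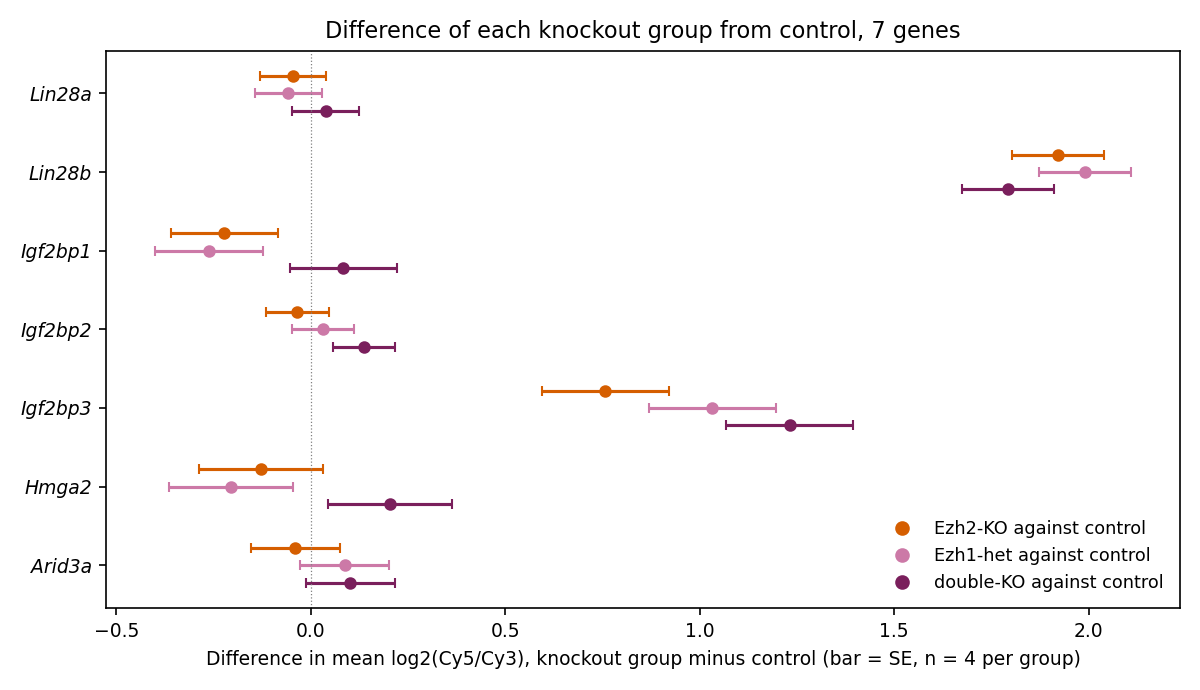
Difference of each knockout group from control in mean log2(Cy5/Cy3) for the 7 genes, with the SE of the common fit (n = 4 per group). Lin28b lies between 1.79 and 1.99, Igf2bp3 between 0.76 and 1.23, and the other genes between -0.26 and 0.20.

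Across all 15646 genes tested with limma, a gene was called where its Benjamini-Hochberg adjusted p was under 0.05. Of all genes 3.08% were called in Ezh2-KO (2.4% higher and 0.677% lower), 7.81% in Ezh1-het (5.91% higher and 1.9% lower) and 4.62% in the double knockout (3.71% higher and 0.914% lower). Lin28b and Igf2bp3 were among those called higher in each comparison, 2 of 7 members, and 0 members were called lower. This is a count and not a test of the members, and Lin28b entered the fit only through its knockout arrays, since 0 of 4 control arrays were well above background. These 2 were also the members whose arrays did not overlap control, against 11.2%, 17.9% and 9.33% of all genes. Nothing is read from these shares, because the members were chosen with these contrasts in view, and the 3 comparisons share their 4 control arrays. Between the double knockout and Ezh2-KO, 0.914% of all genes were called (0.639% higher and 0.275% lower) and 0 of the 7 members. There 7.56% of all genes had arrays that did not overlap, and 0 of the 7 members did on the probe that stood for the gene. Beside this count of 0, 1993 of all genes had an unadjusted p under 0.05 in limma. The median difference over the 7 members was -0.04, 0.03 and 0.14 against control, beside 0.06, 0.05 and 0.01 over all genes. Of all genes called against control, 78.0%, 75.7% and 80.2% were higher, shares that became 97.5%, 96.4% and 96.8% with median centring.

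Over 30 other settings of the processing and of the arrays used, the Lin28b difference from control ran from 1.13 to 5.21 in Ezh2-KO, from 1.16 to 5.17 in Ezh1-het and from 1.15 to 5.43 in the double knockout. The Igf2bp3 difference ran from 0.48 to 1.31, from 0.91 to 1.66 and from 1.06 to 1.81, with the lowest Ezh2-KO value within slide 1. These ranges describe how far the values move and are not a test. The Igf2bp3 call in Ezh2-KO was kept in 25 of the 30 settings. It was lost within slide 1, within slide 2, with only the groups compared, without controls 2 and 3, and without Ezh2-KO 4. The Igf2bp3 calls in Ezh1-het and the double knockout were lost within slide 2 only.

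Markers of cell types were read on the same arrays. Against control, 2.4%, 5.91% and 3.71% of all genes were called higher in the 3 knockout groups, and 0.677%, 1.9% and 0.914% lower. Of 12 nephron progenitor markers, 1 was called higher and 2 lower in Ezh2-KO, 1 and 3 in Ezh1-het, and 2 and 2 in the double knockout. The mean of that list ran from -0.15 to 0.25 on Ezh2-KO arrays, from -0.39 to 0.01 on Ezh1-het and from -0.07 to 0.23 on double knockout arrays, against -0.17 to 0.37 in control. Of 6 podocyte markers, 0, 4 and 0 were called higher in the 3 groups, and none lower. Their mean ran from -0.35 to 0.50 on Ezh2-KO arrays, from 0.39 to 0.73 on Ezh1-het and from -0.20 to 0.11 on double knockout arrays, against -0.49 to 0.00 in control. Of 8 early nephron markers, 1, 3 and 3 were called higher and 0 lower, with a mean from 0.20 to 0.30, from 0.14 to 0.40 and from -0.02 to 0.33, against -0.60 to 0.22 in control. The mean of 8 proximal tubule markers ran from -2.34 to 0.29, from -0.16 to 0.40 and from -2.49 to -1.13 in these groups, against -2.05 to 0.43 in control, and 0 of the 8 were called. Of 6 germ cell and pluripotency markers, in whose cells Lin28 genes are also active, Dazl, Ddx4 and Dppa3 did not pass the filter, and the mean of the other 3 lay between -0.17 and 0.13 on knockout arrays, against 0.13 to 0.33 in control. Of these 3, Nanog was called lower in Ezh1-het, with a difference of -0.47 (limma adjusted p = 0.0447). Calls were also present in other marker lists. Of 7 stroma markers tested, 1, 1 and 2 were called higher in the 3 groups. Of 5 immune markers tested, 1 was called lower in each group, and 1 of 5 liver markers was called higher in Ezh1-het. The part of cell composition in the levels of the 7 genes was not tested.

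The promoters of the 2 genes with higher levels are shown for comparison, from 250 bases before to 50 after the annotated start, with each CG pair in capitals (RefSeq, GRCm38.p6). Lin28b lies at chr10:45470152-45470451 and Igf2bp3 at chr6:49214905-49215204, both on the minus strand. For both genes the start used by the table lies inside the annotated gene and is not its outermost start.
Lin28b: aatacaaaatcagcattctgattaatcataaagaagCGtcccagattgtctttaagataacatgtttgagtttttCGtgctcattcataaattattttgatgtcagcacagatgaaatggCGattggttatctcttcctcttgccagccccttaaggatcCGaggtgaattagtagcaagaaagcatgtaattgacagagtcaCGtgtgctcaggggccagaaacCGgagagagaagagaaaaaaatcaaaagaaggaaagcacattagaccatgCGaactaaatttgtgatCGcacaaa
Igf2bp3: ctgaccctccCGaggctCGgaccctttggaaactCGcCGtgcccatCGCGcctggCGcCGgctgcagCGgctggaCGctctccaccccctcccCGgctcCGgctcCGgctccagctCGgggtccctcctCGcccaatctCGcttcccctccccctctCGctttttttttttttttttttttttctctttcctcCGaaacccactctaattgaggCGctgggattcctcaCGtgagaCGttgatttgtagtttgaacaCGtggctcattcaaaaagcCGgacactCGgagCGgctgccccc
CG reads the same on both strands. The Lin28b window holds 8 CG pairs, a number reached by 48.6% of 32851 mouse promoter windows of this length, and the Igf2bp3 window holds 25, reached by 18.4%. The windows of Lin28a, Hmga2 and Igf2bp2 hold 10, 12 and 47 pairs, reached by 43.5%, 39.6% and 1.44%. Igf2bp1 and Arid3a are named only. The 2 genes with higher levels thus share no common CG number, and the median window holds 7.

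Beyond the members, 31 other reported let-7 targets were followed, of which 29 were tested and Acvr1c and Il6 were too dim. In Ezh2-KO, Ccnd2, Nr6a1 and E2f6 rose and no target fell, 3 of 29 against 2.4% of all genes. In Ezh1-het, Ccnd2 and Nr6a1 rose, 2 of 29 against 5.91%, and Igdcc3 fell, 1 of 29 against 1.9%. In the double knockout, Ccnd2 and Nr6a1 rose and none fell, 2 of 29 against 3.71%. The median difference of the 29 genes was 0.13, 0.14 and 0.06, beside 0.06, 0.05 and 0.01 over all genes. Most targets therefore did not pass the test in any comparison. Among those, Trim71, a ubiquitin ligase and classical let-7 target, was at -0.32, -0.29 and -0.20 (SE 0.13 each). Myc was at 0.19, 0.12 and 0.22 (SE 0.14 each), while its other probe had the opposite sign at -0.41, -0.38 and -0.11. Mycn was at 0.28, -0.21 and 0.14 (SE 0.18 each).

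Ccnd2, which encodes the G1 cyclin D2, had 1.15, 1.14, 1.29 and 1.13 in Ezh2-KO and 1.10, 1.28, 1.12 and 1.23 in Ezh1-het. It had 1.43, 1.99, 1.38 and 1.28 in the double knockout, against 0.00, 0.25, 0.09 and 0.20 in control, with no overlap. The rises were 1.04 (SE 0.12, adjusted p = 0.00055), 1.04 (adjusted p = 0.000141) and 1.38 (adjusted p = 4.14e-06) in the limma fit. The other 2 probes of the gene gave 1.03 to 1.47.

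Nr6a1, an orphan nuclear receptor of embryonic and germ cells, had 0.52, 0.67, 0.65 and 1.05 in Ezh2-KO and 0.95, 0.93, 0.96 and 1.12 in Ezh1-het. It had 0.64, 0.49, 0.79 and 0.80 in the double knockout, against -0.17, -0.44, -0.21 and -0.18 in control, again with no overlap. The limma rises were 0.97 (SE 0.11, adjusted p = 0.00037), 1.24 (adjusted p = 1.29e-05) and 0.93 (adjusted p = 8.23e-05). The Ezh2-KO call of Nr6a1 was lost within slide 2, where the value was 1.05. E2f6, a transcriptional repressor, rose by 0.40 in Ezh2-KO (SE 0.09, limma adjusted p = 0.0295) and was at 0.22 and 0.19 in the other groups. Igdcc3, a surface protein of the immunoglobulin superfamily, fell by 0.50 in Ezh1-het (SE 0.12, limma adjusted p = 0.0197) and was at -0.40 and -0.35 in Ezh2-KO and the double knockout. The call of E2f6 was lost without control 2 (0.32) and without Ezh2-KO 1, 2 or 4 (0.38, 0.40 and 0.41). That of Igdcc3 was lost without control 3 (-0.43), without Ezh1-het 3 (-0.45) and with median centring (-0.22).

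**Figure D4:**
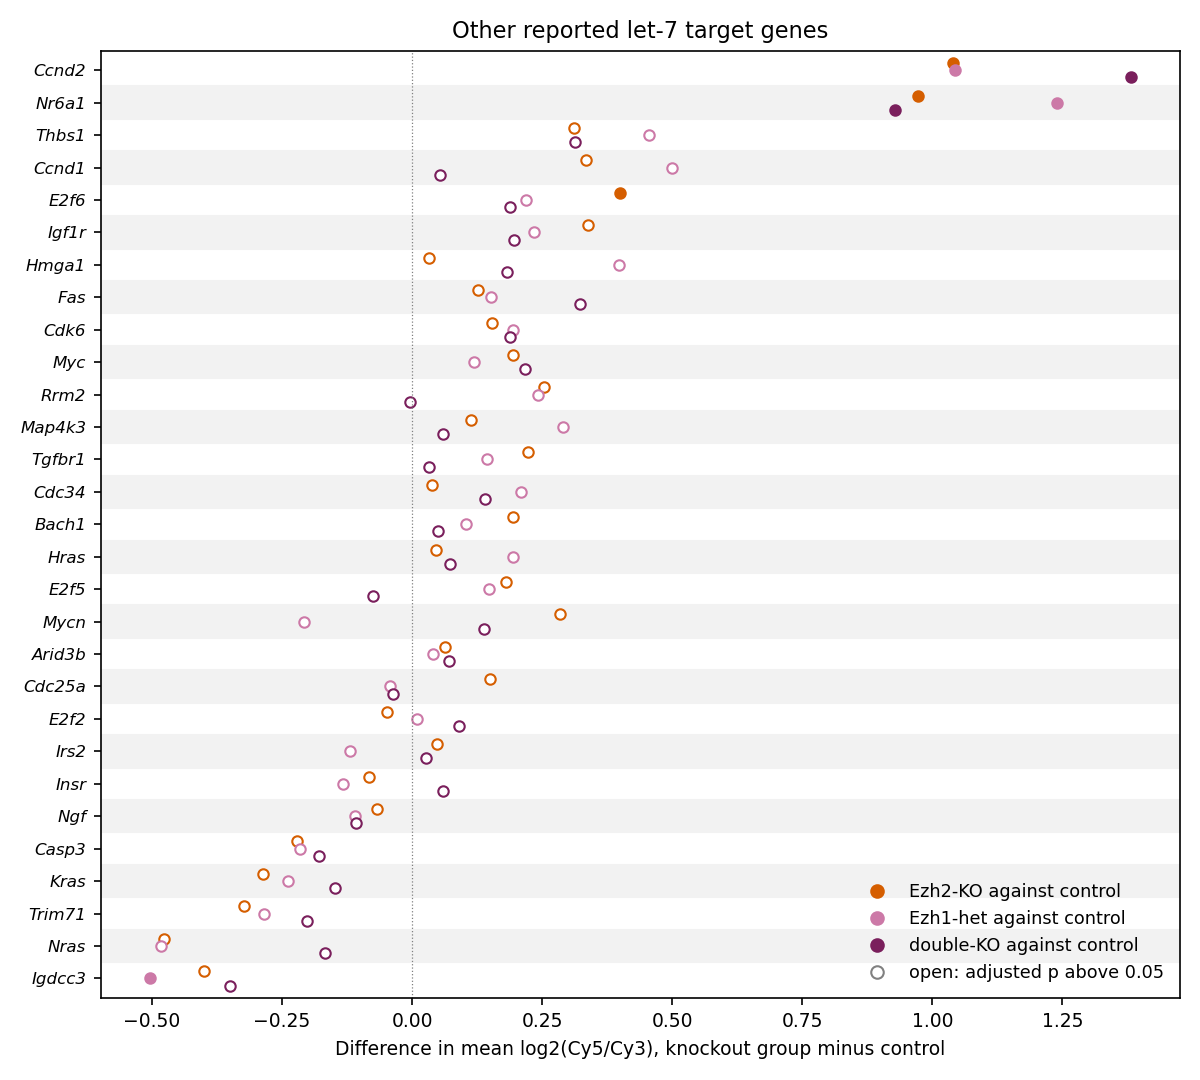
Difference of each knockout group from control in mean log2(Cy5/Cy3) for 29 other reported let-7 targets, ordered by the mean of the 3 differences, with filled symbols where the limma adjusted p was under 0.05. Ccnd2 and Nr6a1 stand to the right of the remaining genes in all 3 comparisons, and most genes lie within 0.50 of 0.

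The 18 genes of let-7 processing, turnover and effector function were all tested. In Ezh2-KO, 0 of 18 were called in either direction by limma, in a comparison with 3329 genes at an unadjusted p under 0.05. All genes were called in 3.08% of cases there. In Ezh1-het, Ago4 rose, 1 of 18 against 5.91%, and Tut4 and Ddx5 fell, 2 of 18 against 1.9%. In the double knockout Ago4 rose, 1 of 18 against 3.71%, and 0 fell, against 0.914%. The median difference of the 18 genes was -0.06, -0.12 and -0.05, beside 0.06, 0.05 and 0.01 over all genes. Ago4, an Argonaute that carries small RNAs, differed by 0.20, 0.40 and 0.61 (SE 0.11, limma adjusted p of 0.279, 0.0326 and 0.00253), and its dimmer probe gave 0.02, 0.10 and 0.12. The double knockout call of Ago4 ended within each slide and without controls 2 and 3 (0.45), and the Ezh1-het call ended without control 2, control 3, Ezh1-het 1 or Ezh1-het 4, at 0.37, 0.33, 0.40 and 0.34. Tut4, the terminal uridylyltransferase that acts with Lin28a on let-7 precursors, differed by -0.39, -0.60 and -0.23 (SE 0.15, limma adjusted p of 0.147, 0.0222 and 0.475). Its call ended without control 2, Ezh1-het 2 or Ezh1-het 4, at -0.46, -0.60 and -0.56, the value was 0.02 with median centring, and its other probes gave -0.60, -0.47 and -0.13 in Ezh1-het. Ddx5, an RNA helicase of the Drosha complex, differed by -0.70, -0.71 and -0.31 (SE 0.19, limma adjusted p of 0.055, 0.0334 and 0.447). Control 2 had the highest Ddx5 value, 1.03, and without it the Ezh1-het difference was -0.52 and no longer called. The Ddx5 call also ended without control 4, Ezh1-het 2 or Ezh1-het 4 (-0.71, -0.62 and -0.64) and with median centring (-0.09), and a second probe gave -0.11. Dicer1, which cuts let-7 precursors, was at -0.21, -0.09 and -0.10 (SE 0.12 each), and its other probes gave -0.40, -0.45 and -0.34, and 0.11, 0.18 and 0.08, so that the sign differed between probes. Dis3l2, the nuclease that degrades uridylated precursors, was at -0.03, -0.11 and -0.15 (SE 0.07 each), and its other probe at -0.41, -0.36 and -0.30.

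Of 11 other fetal growth and oncofetal genes, Dlk1 rose in all 3 knockout groups and Mest fell in all 3. In Ezh2-KO this made 1 of 11 higher and 1 lower, against 2.4% and 0.677% of all genes. In Ezh1-het Meg3 rose as well and Peg10 was called higher, 3 of 11 higher and 1 lower against 5.91% and 1.9%. That count includes Peg10, which passed the filter only through knockout arrays. In the double knockout Meg3 and Igf2 also rose, 3 of 11 higher and 1 lower against 3.71% and 0.914%. The medians of the 11 genes were 0.12, 0.34 and 0.14, beside 0.06, 0.05 and 0.01 over all genes. Dlk1, a paternally expressed surface protein of fetal cells, had 0.31, 0.54, 1.41 and 1.09 in Ezh2-KO and 1.02, 1.17, 0.83 and 1.05 in Ezh1-het. It lay between 1.34 and 1.69 in the double knockout, against 0.06, -0.76, -0.20 and 0.08 in control. The rises were 1.04, 1.23 and 1.72 (SE 0.21, limma adjusted p of 0.0159, 0.00286 and 0.00012), or 2.06-fold, 2.34-fold and 3.29-fold. The other Dlk1 probe, also well above background on all arrays, gave smaller differences of 0.47, 0.59 and 0.75. As for Igf2bp3, the 2 Ezh2-KO arrays on slide 1 were below the 2 on slide 2, and the call ended within each slide (0.77 and 1.31). Without controls 2 and 3 the Dlk1 calls of Ezh2-KO (0.77) and Ezh1-het (0.95) ended too.

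Mest, a paternally expressed enzyme of mesoderm, had 0.02, -0.28, -0.06 and -0.54 in Ezh2-KO and -0.73, -0.40, -0.21 and -0.50 in Ezh1-het. It had -0.14, 0.04, -0.31 and -0.23 in the double knockout, against 0.10, 0.61, 0.54 and 0.28 in control. Mest fell by 0.60, 0.84 and 0.54 (SE 0.14, limma adjusted p of 0.0343, 0.00254 and 0.0391), and with median centring the values were -0.03, -0.19 and 0.12 and not called. The Ezh1-het call of Mest held without any 1 array, but those of Ezh2-KO and the double knockout ended without control 2 (-0.52 and -0.47), control 3 (-0.54 and -0.49) or control 4 (-0.63 and -0.57), and without several knockout arrays. Meg3, a maternally expressed non-coding RNA from the Dlk1 locus, differed by 0.79, 1.04 and 0.93 (SE 0.22, limma adjusted p of 0.0565, 0.00973 and 0.0187). Without controls 2 and 3 the Meg3 values were 0.73 in Ezh1-het and 0.62 in double knockout kidneys, and neither was called. The double knockout call of Meg3 also ended without double knockout 3 (0.89). Igf2, the fetal growth factor whose messenger Igf2bp proteins bind, differed by 0.43, 0.41 and 0.55 (SE 0.13, limma adjusted p of 0.0803, 0.0659 and 0.0194). Its double knockout arrays overlapped control, and the call ended without control 1, 2 or 4 (0.53, 0.47 and 0.53) and without double knockout 2, 3 or 4 (0.51, 0.53 and 0.52). A second Igf2 probe, which did not stand for the gene and was not tested, gave -0.0008, 0.0029 and 0.33. Peg10 was called higher in Ezh1-het on a probe that was well above background on 3 of 4 Ezh1-het arrays and 0 of 4 control arrays. Because it entered the fit only through knockout arrays, no p-value, difference or fold is given. The Peg10 call was lost without control 1, 2 or 3 and without Ezh1-het 1, 2 or 3. Afp, the classical oncofetal protein, varied too much between arrays to compare, with differences of -0.80, 0.78 and -0.10 (SE 0.80 each), and Sall4 was at -0.06, -0.12 and -0.13 (SE 0.11 each).

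**Figure D5:**
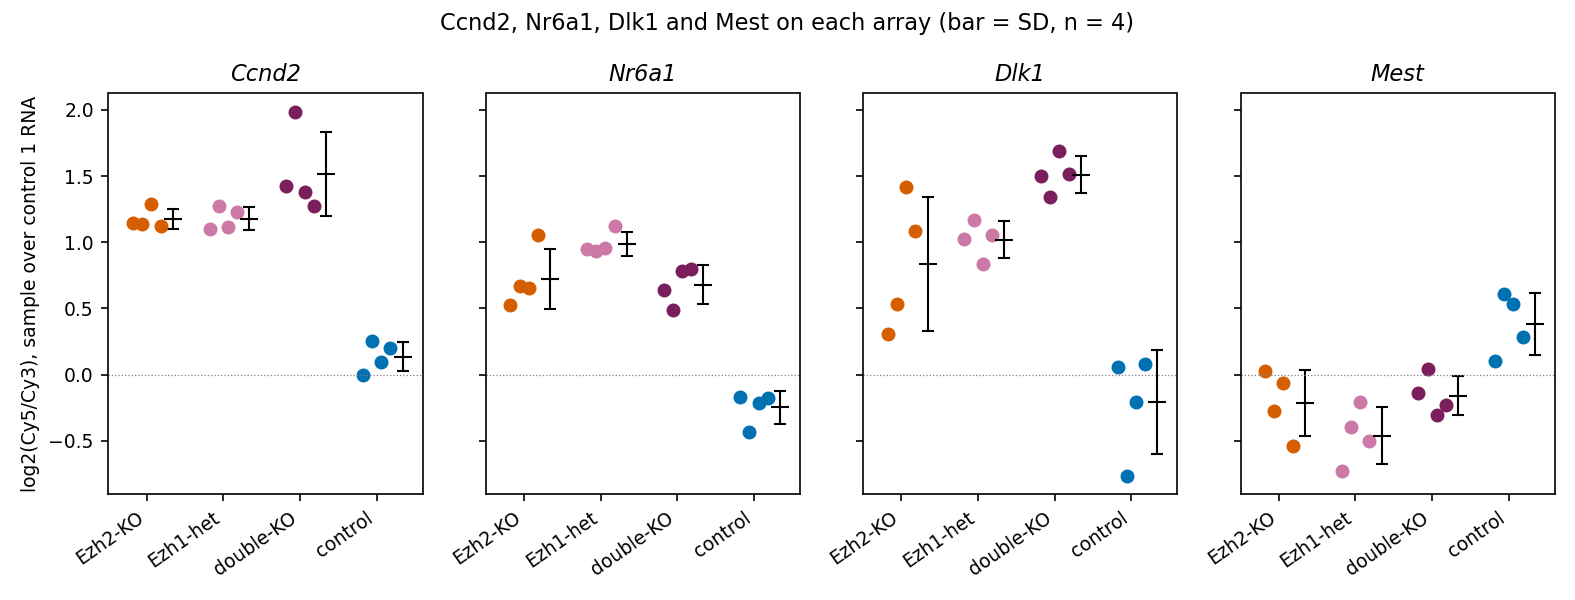
Log2(Cy5/Cy3) of Ccnd2, Nr6a1, Dlk1 and Mest on each array, by group, with the group mean and SD (n = 4). Ccnd2, Nr6a1 and Dlk1 lie above control on all 12 knockout arrays, and Mest lies below control on all 12, with the lowest control array at 0.10.

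The genes whose log2(Cy5/Cy3) followed each member most closely over the 16 arrays were ranked by Pearson's r, given as a description with no test. For Lin28b the first 6 were Zdbf2 (0.96), H2-K2 (0.95), Nr6a1 (0.95), Astn1 (0.95), Vstm2l (0.94) and Bex2 (0.94). The control arrays form a cluster of their own for Lin28b, and over the 12 knockout arrays alone r was 0.46 for Zdbf2, 0.70 for H2-K2, 0.62 for Nr6a1 and -0.11 for Vstm2l. For Igf2bp3 the first 6 were Fndc3c1 (0.96), Celf2 (0.96), Nav1 (0.94), Wdr86 (0.93), Cd14 (0.93) and Serinc2 (0.92). Over the 12 knockout arrays these stayed between 0.70 and 0.90, a value that includes the differences between the 3 knockout groups. Fndc3c1 differed from control by 1.37, 1.94 and 2.00 and Celf2 by 0.48, 0.67 and 0.88 in the 3 knockout groups. The order of groups was that of Igf2bp3, which the choice of genes by their correlation on these same arrays favours.

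Between members, Lin28b and Igf2bp3 had r = 0.86 over 16 arrays, 0.14 over the 12 knockout arrays and 0.59 once group means were removed. Hmga2 and Igf2bp1 had r = 0.89 over 16 arrays and 0.86 once group means were removed, and Rpl28 and Npm1 were the first 2 genes in the ranking of both. Arid3a followed Kcnj2 (0.92) most closely, Igf2bp2 followed Nepro (0.87) and Lin28a followed Dock3 (0.83). After removing group means, Arid3a had r = 0.85 with Lin28b and 0.71 with Igf2bp3. Over the 12 knockout arrays alone, with group means kept, r was 0.67 and 0.75. The values over 16 arrays include the control arrays, on which Lin28b was not well above background. All points share the Cy3 reference RNA and the arrays, and these values therefore include array effects.

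The neighbours of each member on its chromosome, up to 2 protein-coding genes on each side, were listed in RefSeq order. Around Lin28b, Bves rose in Ezh2-KO by 0.55 (limma adjusted p = 0.0223) and was at 0.37 and 0.36 in the other groups, Hace1 was at 0.34, 0.15 and 0.07 without a call, and Popdc3 and Grik2 were not tested. Around Igf2bp3, Malsu1, Tra2a and Ccdc126 were not called in any of the 3 comparisons, with values from -0.07 to 0.38, and Gpnmb was not tested. The other calls next to a member were B4galnt2 beside Igf2bp1 (0.56, limma adjusted p = 0.0363) and Kiss1r beside Arid3a (0.25, limma adjusted p = 0.0224), both in Ezh1-het.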

How the data were processed

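Total RNA of 16 embryonic mouse kidney samples was measured on 2-colour Agilent arrays, 62976 features each, with the sample in Cy5 and control 1 in Cy3 per the labels, and no dye swap. The deposited scanner files hold raw spot and background intensity values made with Feature Extraction 10.7.3.1, per the file headers and the submitters' processing notes, and the array is annotated on mm9 per the file headers. The deposited value table holds log10 ratios, which differed from the log10 ratios in the scanner files by at most 0.005. Its direction, Cy5 over Cy3, comes from the labels.

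Median spot and background intensities were corrected with normexp (offset 50) and loess in limma 3.58.1 (R 4.3.3). Spots of a probe were averaged. A probe was kept if its Cy5 signal was well above background on 4 or more of the 16 arrays (34731 of 56605 probes), and the brightest probe stood for a gene, 15646 genes in all. One fit over all 4 groups (lmFit, eBayes) gave two-sided p-values, adjusted by Benjamini-Hochberg at 0.05. Symbols and sequences came from RefSeq (GRCm38.p6). The share of probes above background was 53.1% to 63.4% per array, and 4 arrays per group limit the precision. The fit was tested on simulated data.

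The members, the gene lists and the rule for named genes were chosen with earlier results of these data known. Named genes are all members, every list gene called against control (up to 8 per comparison), Myc, Mycn, Trim71, Dicer1, Dis3l2, Igf2, Afp and Sall4, and the 6 genes most like each member. Same-numbered arrays of different groups had correlations of their deviations from -0.478 to 0.515, with 8 of 24 over 0.1, so the numbers were not taken as pairs. Alternatives covered background correction, normalization, the filter, probe summary, slide and replicate blocks, array weights, variance model, samples in the fit and leaving out arrays.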

Additional observations from a re-analysis of the deposited data

Results flagged for a closer look

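Of 128 groups of 4 arrays examined, 10 held 1 array far from the other 3, and chance gives about 1 in 20 groups. Among the members, Lin28b probe A_52_P532355 read 0.62 on Ezh2-KO 3, where the others lay between 0.23 and 0.29. Lin28b probe A_55_P1970905 read 0.14 on control 4, and the others lay between -0.24 and -0.19. Lin28a probe A_55_P2074371 read -0.25 on Ezh2-KO 4, and the others lay between 0.06 and 0.10.

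Among the other genes named, Ccnd2 read 1.29 on Ezh2-KO 3 (others 1.13 to 1.15), and Igf2 read 0.21 on double knockout 1 (others 0.55 to 0.61). Nr6a1 read 1.12 on Ezh1-het 4 (others 0.93 to 0.96) and -0.44 on control 2 (others -0.21 to -0.17). Control 2 also stood apart for E2f6 at -0.29 (others 0.00 to 0.05) and for Sall4 at 0.49 (others 0.04 to 0.09). Dis3l2 read -0.18 on double knockout 4 (others -0.30 to -0.29).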

How the results depend on the processing

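All values are given in the order Ezh2-KO, Ezh1-het and double knockout, each against control, unless a comparison is named. The number of genes called, 482, 1222 and 723, became 6839, 8037 and 5364 with median centring and 1242, 2455 and 2027 with array weights. It was 162, 138 and 229 within slide 1, 6, 37 and 113 within slide 2, and 78, 235 and 450 without controls 2 and 3. With only the groups compared it was 59 for Ezh2-KO and 442 for the double knockout. For the double knockout against Ezh2-KO the 143 calls became 13 within slide 2, 1279 with array weights, 66 with only the groups compared and 217 without controls 2 and 3. Without 1 array at a time these counts ran from 202 to 515, 487 to 1484, 441 to 922 and 84 to 199. With the replicate number as a block they were 462, 1125, 740 and 122, and 5 of 16 arrays correlated best with their own number.

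Lin28b differences were 5.21, 5.17 and 5.43 with processed signals, 2.87, 2.86 and 2.76 with offset 10, 2.33, 2.45 and 2.23 with median centring, 2.22, 2.40 and 2.18 with Cy5 alone, and 1.13, 1.16 and 1.15 as the mean of probes. With median centring Igf2bp3 was at 1.31, 1.66 and 1.81, Hmga2 at 0.44, 0.44 and 0.84, Igf2bp1 at 0.33, 0.37 and 0.69, Igf2bp2 at 0.48, 0.59 and 0.66, and Arid3a at 0.42, 0.59 and 0.56. With the same setting Lin28a was at 0.0792 in Ezh1-het and at 0.19 in double knockout kidneys. It was at -0.21 in Ezh2-KO with Cy5 alone and at -0.18 in Ezh1-het with processed signals. Hmga2 without controls 2 and 3 was at 0.15 in Ezh2-KO and 0.0735 in Ezh1-het. Median centring turned the sign of Mest (0.12) and Ddx5 (0.31) in the double knockout, of Tut4 (0.0234 and 0.37) and Dicer1 (0.45 and 0.40) in Ezh1-het and the double knockout, and of Dis3l2 (0.51 and 0.48) in Ezh2-KO and Ezh1-het. The cause of these shifts was not tested.

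Of the let-7 processing genes, 9, 10 and 12 were called higher with median centring, and 0 lower in Ezh1-het. In Ezh2-KO 1 was called lower with a slide block or a trended variance. In Ezh1-het 0 were higher with Cy5 alone, the replicate block, either slide, array weights, only the groups compared, or without controls 2 and 3. There 0 were lower with processed signals, either slide or without controls 2 and 3, 1 with Cy5 alone or only the groups compared, and 4 with array weights. In the double knockout 0 were higher within either slide or without controls 2 and 3, and 1 was lower by the mean of probes. Against Ezh2-KO it had 1 higher with Cy5 alone, array weights or without controls 2 and 3, and 1 lower with array weights. Without 1 array the counts ran from 0 to 1 lower in Ezh2-KO, 0 to 1 higher and 0 to 2 lower in Ezh1-het, and 0 to 1 higher for the double knockout against Ezh2-KO.

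Of the other let-7 targets, 16, 17 and 16 were higher with median centring, and 5, 5 and 4 with array weights. In Ezh2-KO 1 was higher within slide 2. In Ezh1-het 0 were lower with median centring, either slide or without controls 2 and 3. With array weights 1 was lower in the double knockout, against control and against Ezh2-KO. Without 1 array the counts ran from 2 to 4 higher and 0 to 1 lower in Ezh2-KO, and 2 to 3 higher and 0 to 1 lower in Ezh1-het.

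Of the oncofetal genes, Ezh2-KO had 2 higher with processed signals, Cy5 alone, the mean of probes, either block or array weights, 5 with median centring, and 0 within either slide, with only the groups compared or without controls 2 and 3. It had 0 lower with processed signals, median centring, Cy5 alone, either slide, only the groups compared or without controls 2 and 3. Ezh1-het had 1 higher within slide 1 and 0 within slide 2 or without controls 2 and 3, and 0 lower with median centring, either slide or without controls 2 and 3. The double knockout had 6 higher with median centring and 1 within either slide or with only the groups compared, and 0 lower in all those settings, with processed signals, Cy5 alone, the mean of probes or without controls 2 and 3. Against Ezh2-KO it had 1 higher with array weights. Without 1 array the counts ran from 1 to 2 higher and 0 to 1 lower in Ezh2-KO, 2 to 3 higher and 1 to 2 lower in Ezh1-het, and 1 to 4 higher and 0 to 1 lower in the double knockout. For the named list genes, 71 calls were lost and 27 gained with the sign kept, over all settings other than leaving out 1 array. Cases in which the sign turned, with a call in the main fit or in the setting, are counted apart and were 8.

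The control level of Lin28b lay at background, so its folds are only approximate. All Cy3 RNA came from control 1 without a dye swap, so dye bias and sample cannot be told apart within an array.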
